A study of Mus musculus with 14 samples.

Results

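The genes described here are 10 core genes of the circadian clock, taken by name from the 36536 genes counted in each library: Arntl, Clock, Per1, Per2, Per3, Cry1, Cry2, Nr1d1, Nr1d2 and Dbp. They were chosen by name with their CPM in the 6 groups already known, so measured levels had a part in the choice. All 10 were matched by Ensembl ID and all 10 passed the filter on low counts in both fits. They were followed through 14 mouse RNA-seq libraries in 6 groups, from a study of ATOH1, the transcription factor that sets the secretory lineage of the intestine. In colon and in ileum (the distal small intestine), 2 libraries each came from crypts of Atoh1 f/f; VilCreERT2 mice (KO) and 2 from crypts of littermates that were Atoh1 f/+ with the same recombinase (WT), all aged 6 to 8 weeks. KO and WT thus both carried VilCreERT2, driven by the Villin promoter of the intestinal epithelium, and WT crypts had 1 floxed allele. A further 3 libraries per tissue (GFP) came from live, 7AAD-negative, GFP-positive cells sorted from crypts of AtohGFP/GFP mice, which make a functional ATOH1-GFP fusion protein. No label gives the time of day at which tissue was collected, the sex of the mice or the induction of the recombinase, so collection time cannot be told apart from any group or library.

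The clock is a transcriptional feedback loop that runs in nearly every mammalian cell, the intestinal epithelium included. ARNTL (also called BMAL1) pairs with CLOCK or its relative NPAS2 on E-box DNA and switches on Per and Cry genes, whose proteins then repress that same pair. In a second loop the nuclear receptors NR1D1 and NR1D2 (REV-ERB) repress Arntl while the ROR receptors activate it, and D-box DNA is read by the activators DBP, TEF and HLF and by the repressor NFIL3. In mouse tissues Arntl, Clock and Npas2 RNA peak at about the opposite time of day to Nr1d1, Nr1d2, Dbp and Per RNA. For the text below, the Arntl side means Arntl, Clock, Cry1, Npas2 and Nfil3, and the Dbp side means Nr1d1, Nr1d2, Dbp, Per1, Per2, Per3, Tef, Hlf and Ciart.

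The crypt libraries held 8848660 to 10870416 gene counts and the sorted libraries 7478418 to 12991891. The sorted libraries stood apart from all crypts in their makeup. Mitochondrial rRNA (mt-Rnr1, mt-Rnr2) took 30.02 to 44.88% of their gene counts against 0.136 to 0.219% in crypts, and reads outside genes made up 24.87 to 52.29% against 9.303 to 13.25%. Atoh1 followed the labels, at 195 to 323 CPM in GFP, 39.5 to 62.6 CPM in WT and 0.526 to 5.9 CPM in KO libraries. CPM here are counts scaled to the gene total of each library times its TMM factor over the 14 libraries. The 9 epithelial markers (Epcam, Cdh1 and 7 others) were detected in all groups but were lower in all sorted libraries than in WT for 7 in colon and 5 in ileum. Their sums were 4542 to 5514 against 9350 to 10228 CPM in colon and 3726 to 6654 against 8482 to 10489 CPM in ileum. In contrast, the 7 goblet markers summed to 41629 CPM or more in each sorted library and 9603 to 21224 CPM in WT crypts. Of these 7, 5 were higher in all sorted libraries than in WT in each tissue, and Fcgbp was lower in colon. The 6 Paneth markers summed to 56183 to 81200 CPM in ileum GFP against 10096 to 31833 CPM in ileum WT. In colon their sums were 152 to 2336 CPM in GFP against 81.7 to 438 CPM in WT. Of the 6, 3 were higher in all sorted libraries than in WT in ileum and 2 in colon, and 0 were lower. Because the 6 groups had been compared for these 10 genes before they were chosen, their values are given as a description. Counts of them past a threshold stand beside the same share over all genes and are not read as tests. Tests are kept for 26 other clock genes, which come from a list that was itself drawn up with earlier results known. The labels do not say that libraries came from separate animals, so a p-value here measures spread among libraries that may be technical.

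The letters of E-box and D-box elements can be read in several promoters of these genes. The stretches below were picked because their genes were among those lower together in the sorted cells, or because they carry the E-box of Cry1. Being picked in this way, they show no link between the letters and the lower values. For Ciart 1 of 3 E-boxes is shown. RefSeq windows of 300 bases (250 before to 50 after the start, GRCm38.p6) were found for 9 of the 10 genes and 20 of the 26 others, with 13 and 29 windows. Capitals mark the E-box CACGTG or a D-box (TTATGTAA or TTATGCAA), searched on both strands, and each stretch is 60 bases that end before the start site.
Per1 E-box, chr11:69098756-69098815, + strand: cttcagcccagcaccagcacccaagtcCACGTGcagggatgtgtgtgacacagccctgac
Per1 D-box, chr11:69098889-69098948, + strand: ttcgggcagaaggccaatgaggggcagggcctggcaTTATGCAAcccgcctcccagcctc
Per3 D-box, chr4:151044837-151044896, − strand: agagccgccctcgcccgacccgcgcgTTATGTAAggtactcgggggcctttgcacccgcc
Per3 D-box, chr4:151044790-151044849, − strand: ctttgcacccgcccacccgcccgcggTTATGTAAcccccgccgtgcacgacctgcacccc
Cry1 E-box, chr10:85185082-85185141, − strand: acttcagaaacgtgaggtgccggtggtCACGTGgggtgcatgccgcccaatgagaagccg
Ciart E-box, chr3:95882312-95882371, − strand: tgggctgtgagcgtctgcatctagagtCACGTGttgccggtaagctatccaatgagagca
Tef E-box, chr15:81802519-81802578, + strand: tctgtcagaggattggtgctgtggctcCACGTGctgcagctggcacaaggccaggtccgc

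The 13 windows came from 9 of the 10 genes, as none was found for Per2, which was not searched. Among them 2 held an E-box (Per1, Cry1) and 2 held a D-box (Per1, Per3). Per1 was the 1 gene with both, its E-box 166 and its D-box 24 bases before the start. Over all 32817 RefSeq windows the E-box was in 7.15%, a D-box in 1.66% and TAGGTCA in 2.61%. TAGGTCA is the end of the ROR element, and 1 window of Arntl, at its second start, held it. The windows of Dbp, Nr1d1, Nr1d2, Clock and Cry2 held none of these motifs. Among the 29 windows of the other clock genes, 6 held an E-box, from Ciart, Bhlhe41, Tef (at both starts), Cipc and Tspan4. A D-box was found for Timeless and TAGGTCA for Nfil3. These matches are letters in a window and were not tested as binding sites.

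In sorted ATOH1-GFP cells the genes of the Dbp side other than Hlf stood below whole WT crypts in both tissues, while Arntl stood above them. Dbp, a D-box activator and a direct output of the clock, was the most extreme, at a log2 fold change of −6.46 (SE 0.34) in colon and −6.06 (SE 0.40) in ileum. Nr1d1, Nr1d2 and the 3 Per genes lay between −3.19 and −1.46 in colon and between −1.94 and −1.15 in ileum. Arntl lay at 1.79 (SE 0.23) and 1.30 (SE 0.22). In colon 1 of the 10 genes was called higher and 7 lower, beside 22.3 and 23.6% of all 15274 genes tested (45.9% in either direction). In ileum 2 were called higher and 8 lower, beside 24.6 and 28.1% (52.8% in either direction). Called here means an edgeR adjusted p under 0.05 over all genes. Their median log2 fold change was −1.62 in colon and −1.22 in ileum, against 0.01 and −0.06 over all genes tested. Sorted and crypt libraries did not overlap for 80 and 100% of the 10 genes, against 67.1 and 64.9% of all genes. These shares concern the contrast in view when the genes were chosen, so nothing is read from them.

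**Figure D1:**
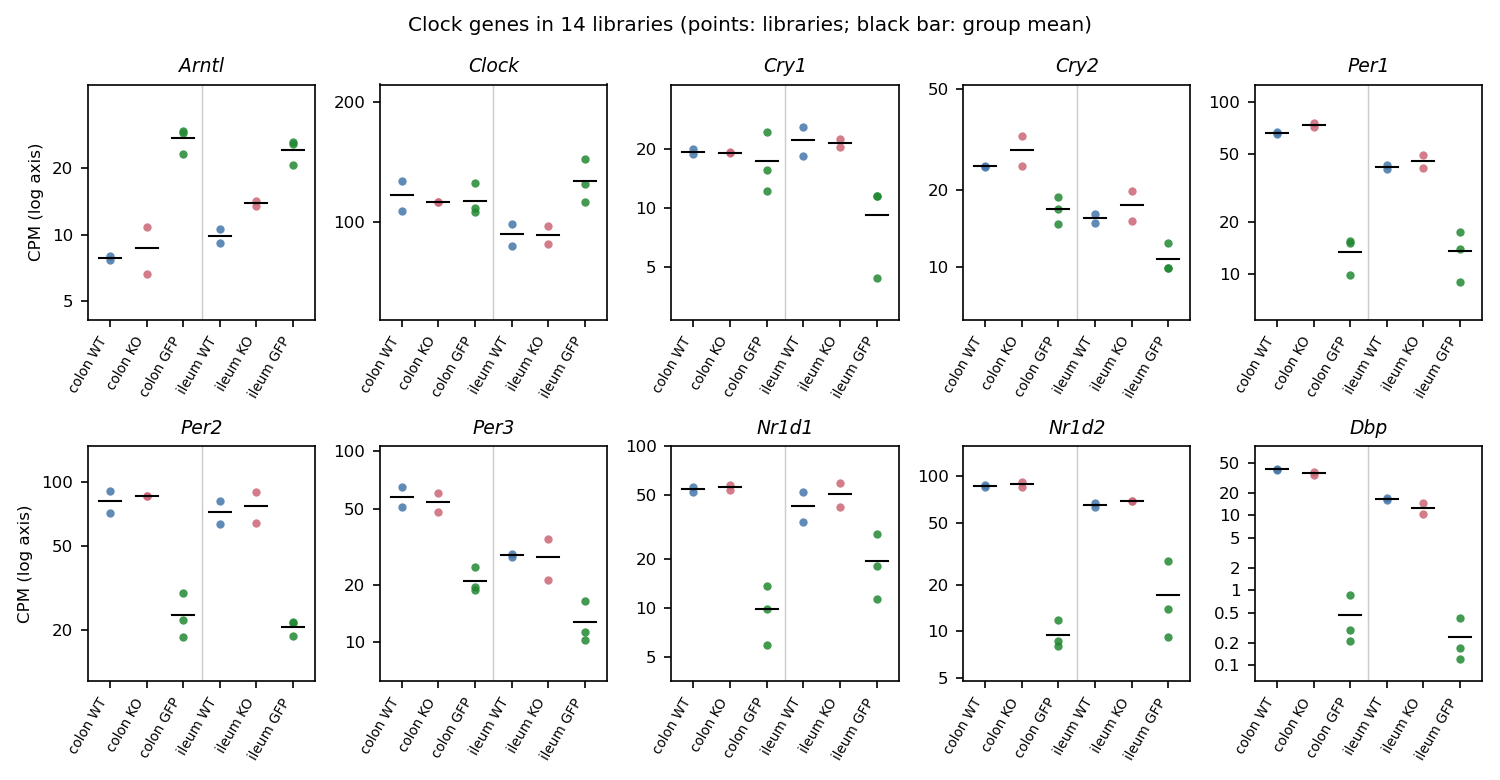
CPM of the 10 clock genes in each of the 14 libraries (log axis with its own range per panel; points are libraries, black bars group means; blue WT, red KO, green sorted GFP cells, colon left and ileum right of the grey line). Dbp lies at 0.122 to 0.872 CPM in the sorted libraries and at 10.5 to 42.2 CPM in crypts, while Arntl lies at 20.8 to 29.7 CPM in sorted cells and 6.67 to 14.2 CPM in crypts.

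Of the activators, Arntl encodes the partner without which the loop stops. It stood at 29.7, 29.0 and 23.3 CPM in colon GFP against 8.05 and 7.72 CPM in colon WT. The ileum libraries had 20.8, 25.7 and 26.4 CPM in GFP against 10.7 and 9.14 CPM in WT. Every sorted library was above every crypt library, KO included, whose highest Arntl value was 14.2 CPM. Clock, which encodes its partner, had 125, 106 and 108 CPM in colon GFP against 107 and 127 CPM in WT, and those groups overlapped. In ileum Clock had 124, 144 and 112 CPM in GFP against 87.0 and 98.8 CPM in WT, without overlap (log2 fold change 0.45, SE 0.15). Clock had the smallest spread of the 10 genes over the 6 groups, with a highest group mean 1.37 times the lowest.

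The REV-ERB receptors, which repress Arntl, stood low in sorted cells. Nr1d1 had 9.89, 13.7 and 5.98 CPM in colon GFP against 56.2 and 52.0 CPM in WT (log2 fold change −2.44, SE 0.35). For ileum the values were 28.8, 18.2 and 11.4 CPM against 52.3 and 33.8 CPM (−1.15, SE 0.35). The groups did not overlap in either tissue, though in ileum replicate 1 of GFP came near replicate 2 of WT. Nr1d2 had 8.61, 8.09 and 11.8 CPM in colon GFP against 84.6 and 87.5 CPM in WT (−3.19, SE 0.32). Ileum libraries held 28.4, 13.955 and 9.14 CPM against 67.2 and 62.9 CPM (−1.94, SE 0.31). Replicate 1 of ileum GFP was the highest of the 6 sorted libraries for both receptors. It also had the most reads outside genes, 52.29%, whose part in these values was not tested.

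The Period genes, whose proteins repress the activator pair, were also lower in every sorted library than in any crypt library of the same tissue. Colon GFP libraries had 15.4, 9.84 and 15.1 CPM of Per1 against 64.8 and 66.6 CPM in colon WT. For ileum GFP they were 17.5, 13.955 and 8.99 CPM against 43.1 and 40.6 CPM. Its log2 fold changes were −2.29 (SE 0.23) and −1.64 (SE 0.23). Per2 was at 22.4, 18.7 and 29.9 CPM in colon GFP, below the 71.2 and 91.0 CPM of WT. Its ileum GFP libraries had 21.6, 18.8 and 22.0 CPM, below 81.3 and 63.1 CPM. The Per2 values were near each other in the tissues, at −1.78 (SE 0.21) and −1.80 (SE 0.21). Per3, the Period gene that the loop can do without, had 19.5, 24.7 and 18.8 CPM in colon GFP against 50.8 and 64.5 CPM in WT (−1.46, SE 0.23). Ileum values were 16.5, 10.3 and 11.3 CPM against 29.0 and 27.8 CPM (−1.17, SE 0.24).

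The cryptochromes are partners of the Period proteins, and Cry1 differed more from WT crypts in ileum than in colon by its values. Cry2 was at 16.9, 14.7 and 18.8 CPM in colon GFP, below the 24.7 and 24.9 CPM of WT. Ileum GFP had 12.4, 9.92 and 9.85 CPM of it against 16.1 and 14.8 CPM. No sorted library reached its WT crypts, at log2 fold changes of −0.56 (SE 0.19) and −0.53 (SE 0.20). Cry1 had 15.6, 12.2 and 24.5 CPM in colon GFP against 20.1 and 18.9 CPM in WT, with overlap (−0.17, SE 0.33). Those of ileum were 4.43, 11.6 and 11.6 CPM in GFP against 18.5 and 26.2 CPM in WT, without overlap (−1.26, SE 0.34). Cry1 was the 1 gene of the Arntl side that stood lower in ileum GFP.

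Dbp stood at 0.213, 0.872 and 0.299 CPM in colon GFP, against 42.2 and 40.0 CPM in colon WT. The ileum values stood at 0.17, 0.122 and 0.428 CPM in GFP against 17.1 and 16.3 CPM in WT. Behind the sorted values lie 11 counts in colon and 5 in ileum, against 1073 and 420 counts in the WT crypts. Over these sums Dbp was 89.9-fold lower in colon GFP (95% interval 50.03 to 181) and 70.3-fold lower in ileum GFP (29.9 to 218), where the exact binomial intervals cover counting error only. With 1 library left out at a time, its log2 fold change ran from −7.30 (without colon GFP replicate 2) to −6.05 in colon. In ileum it ran from −6.76 (without ileum GFP replicate 3) to −5.70. The Dbp exons overlap those of Sphk2 on the other strand over 18% of their length, and those of Nr1d1 overlap Thra over 8.55% and Cry2 overlaps D930015M05Rik over 4.67%. Since the strand setting of the counting is not given, reads over these shared stretches may have been counted for either gene or, as ambiguous, for neither.

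**Figure D2:**
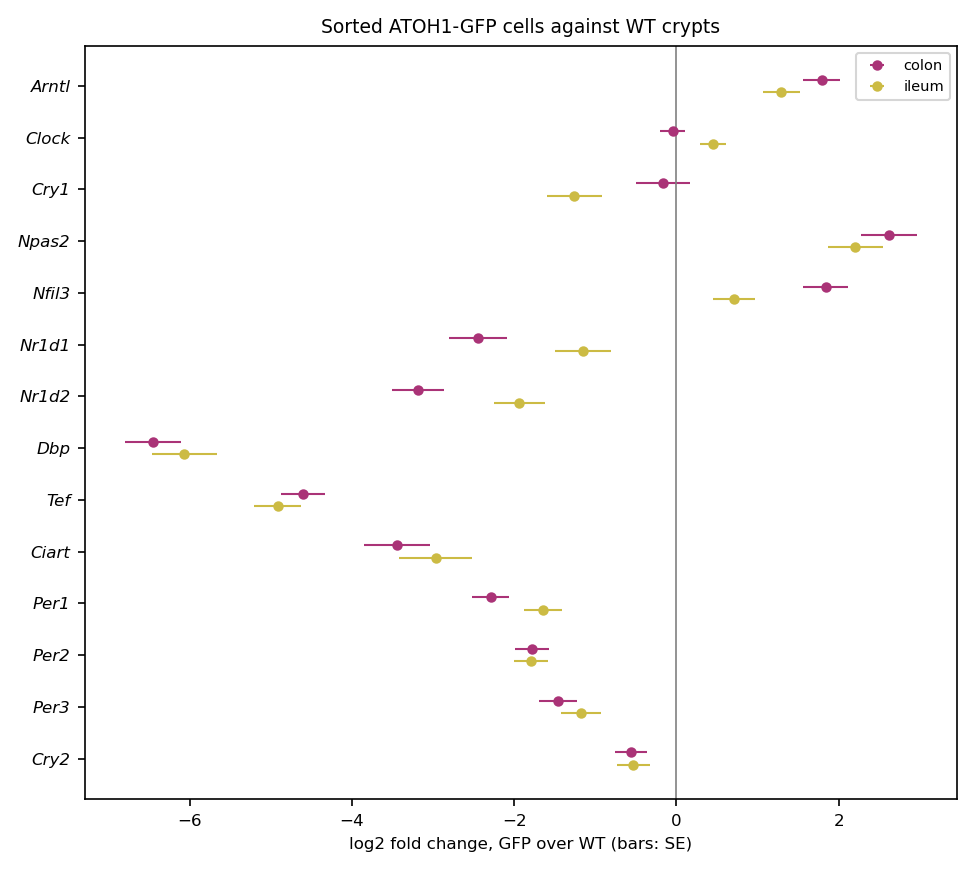
Log2 fold change of sorted GFP cells over WT crypts (horizontal axis; bars are standard errors from edgeR) for the Arntl side (top 5 rows), the Dbp side without Hlf (next 8 rows) and Cry2, in colon (purple) and ileum (yellow). All 8 genes of the Dbp side lie below 0 in both tissues, from −6.46 to −1.15, and Arntl, Npas2 and Nfil3 lie above 0 in both.

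The other clock genes, tested although their list was drawn up with earlier results known, included changes in both directions. In colon GFP 7 of 24 tested rose and 11 fell, beside 22.3 and 23.6% of all genes. In ileum GFP 6 rose and 9 fell, beside 24.6 and 28.1%, so that the share called there was near that of all genes (52.8%). Their median log2 fold change was 0.12 in colon and −0.07 in ileum. Tef, a D-box activator like Dbp, had 3.4, 4.61 and 9.26 CPM in colon GFP against 139.9 and 133.7 CPM for crypts, and 2.82 to 3.14 CPM in ileum GFP against 95.4 and 83.1 CPM. The log2 fold changes were −4.61 ± 0.27 (SE) for colon (edgeR adjusted p = 8.5e-08) and −4.91 ± 0.29 (SE) for ileum (edgeR adjusted p = 5.4e-08). Ciart, a repressor of the ARNTL-CLOCK pair, fell from 10.2 and 7.38 CPM in colon WT to 0.425, 1.12 and 0.897 CPM in GFP (log2 change −3.44 ± 0.40 SE, edgeR adjusted p = 1.9e-05). In ileum it fell from 4.8 and 3.57 CPM to 0.511, 0.245 and 0.857 CPM (−2.96, SE 0.45, edgeR adjusted p = 0.00011). Hlf was under 1.5 CPM in all 14 libraries and was not tested. Tef and Ciart are thus the tested genes of the Dbp side outside the 10 chosen ones. As their list was drawn up with earlier results known, they are not independent support for the values of that side.

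Npas2, which can stand in for Clock, rose in both tissues. It had 38.8, 32.7 and 28.4 CPM in colon GFP against 4.76 and 6.01 CPM in WT (log2 change 2.62 ± 0.35 SE, edgeR adjusted p = 5.1e-05). In the ileum it stood at 29.5, 36.1 and 34.0 CPM in GFP against 3.58 and 10.9 CPM in WT (2.20, SE 0.34, edgeR adjusted p = 0.00013), and its ileum value was 1.59 without WT replicate 1 and 3.20 without WT replicate 2. Nfil3, the D-box repressor, had 17.2, 18.2 and 15.7 CPM in colon GFP against 5.28 and 4.24 CPM (1.84, SE 0.28, edgeR adjusted p = 0.00013). In ileum Nfil3 had 7.66, 12.7 and 15.3 CPM against 7.85 and 6.73 CPM, with overlap. That ileum call (edgeR adjusted p = 0.036) was lost without either WT library or GFP replicate 2 or 3, and in 3 other settings, with an adjusted p of up to 0.18. Of the Arntl side, Arntl and Npas2 were higher in every sorted library than in any WT crypt library of its tissue. Clock and Cry1 overlapped in colon and Nfil3 in ileum.

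The E-box repressor Bhlhe40 (DEC1) rose in ileum GFP, at 211, 449 and 367 CPM against 89.7 and 129 CPM in WT (log2 change 1.65 ± 0.27 SE, edgeR adjusted p = 0.00019). In colon it had 248, 230 and 210 CPM in GFP against 158 and 159 CPM and was not called, except with the compared groups alone in the fit (edgeR adjusted p = 0.029). Rora, which encodes a receptor that activates Arntl, stood at 2.28 to 5.62 CPM in sorted cells and 0.957 to 2.06 CPM in WT crypts. Its colon call (edgeR adjusted p = 0.0046) was lost without WT replicate 2 (0.055), and its ileum call (edgeR adjusted p = 0.045) without either WT library or GFP replicate 1 or 2 (up to 0.21). Rorb was at 1.7, 1.62 and 3.14 CPM in colon GFP and without a count in all 7 ileum libraries. Set against 3 counts over the ileum GFP group, it was at least 15.1-fold higher in colon GFP. Its rise over colon WT (edgeR adjusted p = 0.0071) was lost without either WT library (up to 0.097).

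Of 9 genes for kinases, ubiquitin ligases and partners of clock proteins, 2 rose and 5 fell in colon GFP, and 1 rose and 3 fell in ileum GFP, beside 45.9 and 52.8% of all genes called in either direction. Gsk3b, a kinase that phosphorylates several clock proteins, rose from 88.1 and 88.8 CPM to 233, 204 and 127 CPM in colon (log2 fold change 1.09, edgeR adjusted p = 0.0014) and from 86.9 and 84.6 CPM to 306, 232 and 239 CPM in ileum (1.596, edgeR adjusted p = 6.2e-05). Csnk1d, a casein kinase that phosphorylates Period proteins, fell in both (−0.79 and −0.69, edgeR adjusted p = 0.00026 and 0.00059). The CLOCK-binding repressor Cipc also fell in both (−0.82 and −0.91, edgeR adjusted p = 0.00046 and 0.00017). Btrc, a ubiquitin ligase subunit that marks Period proteins for degradation, rose in colon (0.90, edgeR adjusted p = 0.0014). The colon calls of Csnk1e and Timeless were near the threshold (−0.50 and −0.82, edgeR adjusted p = 0.044 and 0.045). Each was lost without either WT library and without at least 2 of the GFP libraries (adjusted p of up to 0.18), whereas the ileum fall of Timeless (−1.26, edgeR adjusted p = 0.0039) was kept in all alternatives.

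Of 6 clock-controlled outputs, 4 fell in both tissues, beside 23.6 and 28.1% of all genes: Usp2, Tsc22d3, Nampt and Noct. Usp2, a ubiquitin protease under clock control, had 21.0, 22.5 and 20.6 CPM in colon GFP against 59.3 and 40.9 CPM, and 11.9, 6.86 and 6.57 CPM in ileum GFP against 62.4 and 59.7 CPM. Its log2 fold change was −1.22 ± 0.21 (SE) for colon (edgeR adjusted p = 0.00044) and −2.87 ± 0.23 (SE) for ileum (edgeR adjusted p = 5.2e-07). Noct (nocturnin), whose RNA has a strong daily rhythm, fell by 1.74 in colon and 1.27 in ileum (edgeR adjusted p = 0.00015 and 0.0011), and the ileum value was −0.57 without WT replicate 1 (edgeR adjusted p = 0.047). Nampt, an enzyme of NAD synthesis, fell by 1.07 and 0.96 (edgeR adjusted p = 0.00041 and 0.00071). Tsc22d3, which responds to glucocorticoids, fell by 1.44 and 1.75 (edgeR adjusted p = 3.4e-05 and 5.6e-06). Tspan4 was called higher in ileum GFP at the edge of the threshold (edgeR adjusted p = 0.0498), and 8 alternatives ended that call.

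**Figure D3:**
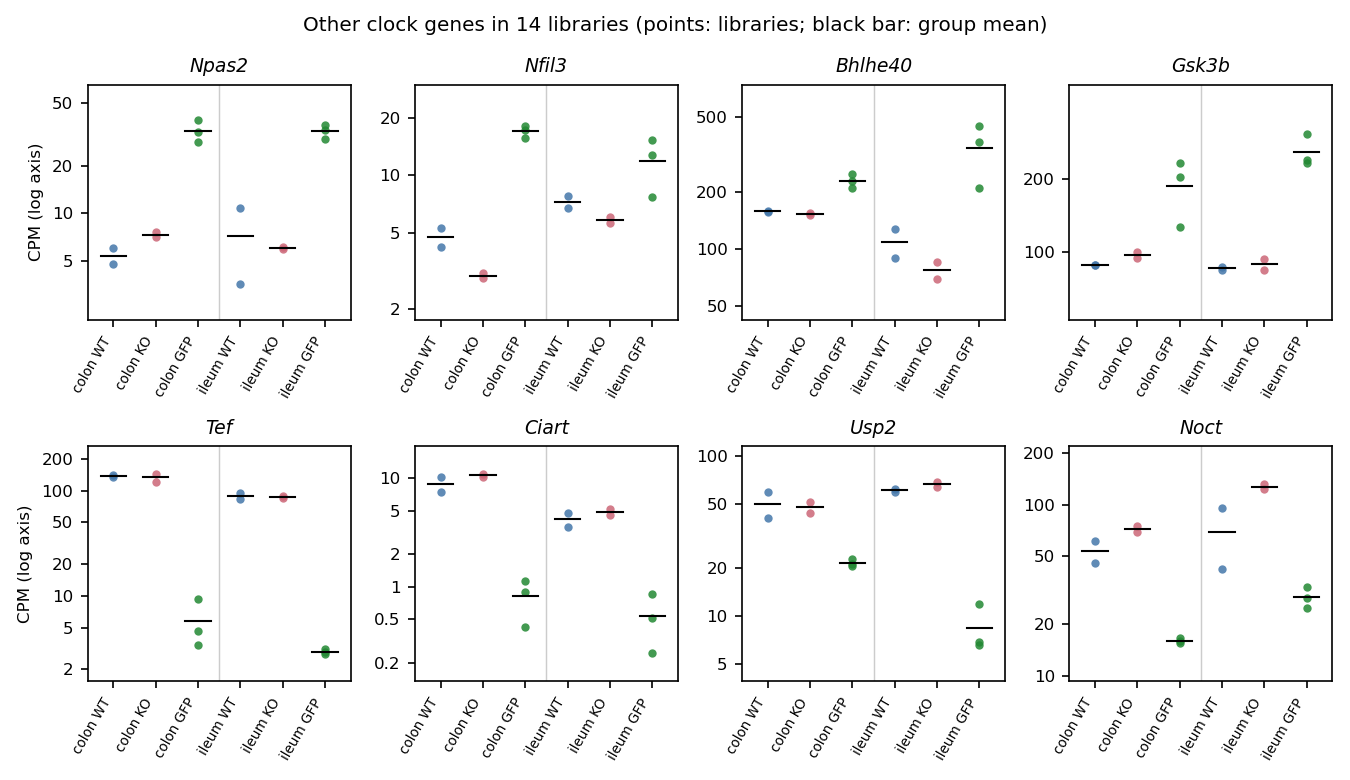
CPM of 8 other clock genes in each of the 14 libraries (log axis with its own range per panel; points are libraries, black bars group means; blue WT, red KO, green sorted GFP cells). Npas2 lies at 28.4 to 38.8 CPM in sorted cells and 3.58 to 10.9 CPM in crypts, and Tef at 2.82 to 9.26 CPM in sorted cells and 83.1 to 145.9 CPM in crypts.

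Markers of other cells and of handling moved with the sorted groups. Of 10 stromal markers 9 were lower in all sorted libraries than in WT in each tissue, with sums of 2.02 to 9.96 CPM against 95.1 to 113 CPM in colon and 3.24 to 4.53 CPM against 41.5 to 111 CPM in ileum. Of 10 immune markers 9 were lower in colon GFP and 4 in ileum GFP, with sums of 44.1 to 209 CPM against 1774 to 2114 CPM, and 273 to 757 CPM against 692 to 2396 CPM. Of 9 absorptive markers 6 were lower in colon GFP and 7 in ileum GFP. Fabp2 was higher in ileum GFP, at 1043 to 1438 CPM against 712 to 813 CPM. The 9 summed to 695 to 1146 CPM against 3074 to 8317 CPM in colon. In ileum the sums were 1151 to 1582 CPM against 4117 to 4120 CPM. Of 6 enteroendocrine markers, a secretory type, 5 were lower in colon GFP and 6 in ileum GFP, with sums of 25.5 to 49.9 CPM against 143 to 149.5 CPM, and 19.6 to 42.2 CPM against 148 to 149 CPM. Of 8 measured genes that respond to tissue dissociation 6 were higher and 2 lower (Junb, Ier2) in each tissue, with sums of 634 to 815 CPM against 317 to 371 CPM in colon and 673 to 1542.4 CPM against 166 to 211 CPM in ileum. Of 6 glucocorticoid-responsive genes, among them Per1 and Tsc22d3, 6 were lower in colon GFP and 4 in ileum GFP, with sums of 104 to 138 CPM against 388 to 487 CPM, and 67.2 to 82.2 CPM against 258 to 331 CPM. None of these lists had a gene at 0 in all libraries of either group. Sorting, genotype and cell makeup differ together between GFP and crypt libraries, so their part in the clock gene values cannot be told apart, and fewer cells of a type cannot be told apart from less RNA per cell.

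Between the 2 tissues, 6 of the 9 genes of the Dbp side were higher in every colon crypt library than in any ileum one. They were Dbp, Per1, Per3, Nr1d2, Tef and Ciart, in WT and in KO. Within WT this held for 4117 of all 14415 genes tested, and within KO for 5124. Per2 and Nr1d1 overlapped, and Hlf, too low to be tested, was lower in the colon libraries of each genotype. Dbp stood at 42.2 and 40.0 CPM in colon WT against 17.1 and 16.3 CPM in ileum WT, and at 35.2 and 38.6 CPM in colon KO against 14.8 and 10.5 CPM in ileum KO. The colon libraries were higher without overlap, at log2 fold changes of 1.31 (SE 0.16) in WT and 1.51 (SE 0.16) in KO. Per3 had 50.8 and 64.5 CPM in colon WT against 29.0 and 27.8 CPM in ileum WT, and 48.0 and 60.2 CPM in colon KO against 21.2 and 34.8 CPM in ileum KO (1.03 and 0.92, both SE 0.25). Per1 was at 64.8 to 75.9 CPM in the 4 colon crypt libraries and 40.6 to 49.2 CPM in the 4 of ileum (0.66 and 0.67, both SE 0.11). Cry2 was at 24.7 to 32.7 CPM against 14.8 to 19.9 CPM (0.69 in both), and Nr1d2 at 84.6 to 91.7 CPM against 62.9 to 69.1 CPM (0.42 and 0.33). For these 5 genes no ileum crypt library reached a colon one.

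The other 5 genes were called in neither genotype. Per2 and Nr1d1 had overlapping values, with log2 fold changes of 0.18 and 0.34 in WT and 0.12 and 0.10 in KO. Clock was 0.34 and 0.24 and Cry1 −0.18 and −0.20. Arntl leaned the other way, with 8.05 and 7.72 CPM in colon WT against 10.7 and 9.14 CPM in ileum WT, and 10.8 and 6.67 CPM in colon KO against 14.2 and 13.5 CPM in ileum KO (−0.32, SE 0.23, and −0.70, SE 0.23). In each genotype 5 of the 10 genes (Per1, Per3, Cry2, Nr1d2 and Dbp) were called higher and 0 lower. All genes tested were called higher at 10.2% and lower at 9.71% in WT, and at 13.1 and 12.6% in KO. In WT 70% of the 10 genes did not overlap between tissues against 58.6% of all 14415 genes, and in KO 80% against 68.4%. The WT count was 2 without either colon WT library (Per1 and Dbp) and 3 without ileum WT replicate 2 (Per1, Nr1d2 and Dbp). In KO it was 2 without colon KO replicate 2 or ileum KO replicate 1 (Per1 and Dbp in each). With the numbers that colon and ileum files share as a block, Arntl was also called lower in colon KO (−0.73) and Clock higher in colon WT (0.34). The replicate block also called Arntl in KO (−0.72).

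Of 23 other clock genes tested, 3 were called higher and 2 lower in colon WT, and 5 higher and 2 lower in colon KO. These counts were near the shares of all genes called in either direction, 19.9% in WT and 25.7% in KO, and their median log2 fold changes were 0.05 and 0.02. Tef had 139.9 and 133.7 CPM in colon WT against 95.4 and 83.1 CPM in ileum WT (log2 fold change 0.63, edgeR adjusted p = 0.011), and 0.60 in KO (edgeR adjusted p = 0.010). Ciart was 1.08 and 1.09 (edgeR adjusted p = 0.019 and 0.014), and Cipc 0.70 and 1.08 (edgeR adjusted p = 0.012 and 0.0017). Timeless, a replication fork protein related to a fly clock gene, was lower in colon, at −0.52 and −0.91 (edgeR adjusted p = 0.020 and 0.0016). In WT the edgeR call of Cipc was lost without colon WT replicate 2 (adjusted p = 0.070) and that of Ciart without colon WT replicate 1 or ileum WT replicate 2 (up to 0.10). The WT call of Timeless was lost in edgeR without either colon WT library or ileum WT replicate 1 (adjusted p of up to 0.12). With all 14 libraries in the fit the edgeR calls of Tef, Ciart and Timeless were lost in both genotypes. In KO the calls of Ciart, Nfil3 and Btrc were lost without each KO library in turn. Tef was lost without any but colon KO replicate 1, and Bhlhe40 without replicate 2 of either tissue. The block by shared file numbers added Bhlhe40 in WT (0.57, edgeR adjusted p = 0.041) and Usp2 (−0.51, edgeR adjusted p = 0.032) and Noct (−0.85, edgeR adjusted p = 0.017) in KO. Fbxl21, under 2.5 CPM everywhere, was called lower in colon WT (−2.21, edgeR adjusted p = 0.026) and lost this without either colon WT library or ileum WT replicate 2 (up to 0.18).

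The 8 dissociation-response genes were all higher in colon WT than in ileum WT, with sums of 317 to 371 against 166 to 211 CPM, and the 6 proliferation markers were all lower, with sums of 546 to 569 against 959 to 965 CPM. Ileum WT replicate 2 stood apart from replicate 1, with tuft markers summing to 279 against 19.0 CPM, Paneth markers to 31833 against 10096 CPM and immune markers to 692 against 2396 CPM. Without that library the log2 fold change of Dbp between WT crypts was 1.29. The part of these differences in the tissue values of the clock genes was not tested.

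In sorted cells 6 of the 8 tested genes of the Dbp side had positive values for colon over ileum and 2 had negative ones. Nr1d1 and Nr1d2 were lower in colon GFP than in ileum GFP on average (log2 fold change −0.96, SE 0.34, and −0.85, SE 0.31), with overlapping libraries. Per1 was at 0.00 (SE 0.22) and Dbp, on its few counts, at 0.91 (SE 0.66). That Dbp value was 0.06 without colon GFP replicate 2 and 1.61 without ileum GFP replicate 3. Per3 (0.73, SE 0.23) and Cry2 (0.65, SE 0.19) were higher in colon GFP without overlap, and Cry1 was too (0.90, SE 0.32). Colon and ileum GFP libraries did not overlap for 30% of the 10 genes, against 34.5% of all genes tested. Of the 10 genes 2 were called higher and 0 lower, beside 12.6 and 10.2% of all genes. The calls were Per3 and Cry2. There was none without ileum GFP replicate 2 and 1 (Per3) without colon GFP replicate 3. Without ileum GFP replicate 3 the calls were Nr1d1 and Nr1d2, and without colon GFP replicate 2 they were Cry1, Cry2 and Nr1d1. The difference between the tissues in the sorted-to-WT change was called for none of the 10 genes, beside 2.19% of all genes (1.3% higher, 0.89% lower). At an unadjusted p under 0.05 in edgeR it held for 4 of them, beside 2636 of all 15274 genes, and DESeq2 called 0 of the 10. The sorted groups also differed in makeup, as all 6 Paneth markers were lower in every colon GFP library than in any ileum one. Their sums were 152 to 2336 CPM in colon GFP and 56183 to 81200 CPM in ileum GFP. The part of this difference in the clock gene values was not tested.

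**Figure D4:**
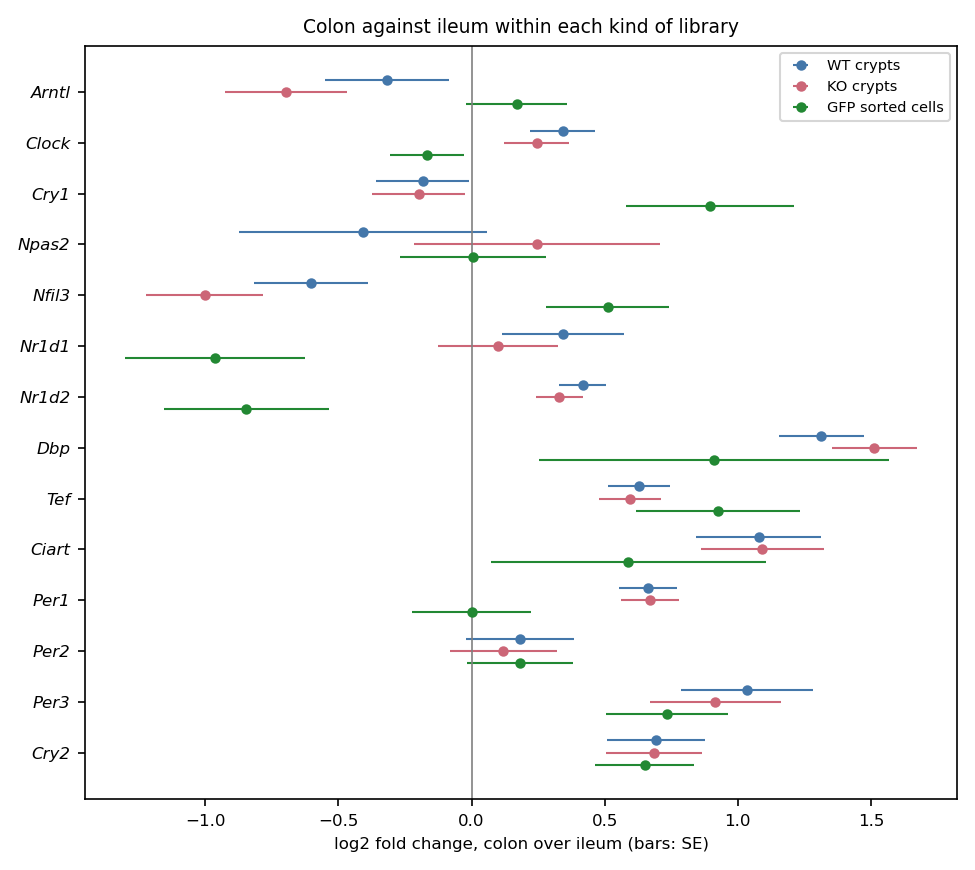
Log2 fold change of colon over ileum (horizontal axis; bars are standard errors from edgeR) within WT crypts (blue), KO crypts (red) and sorted GFP cells (green), for the Arntl side (top 5 rows), the Dbp side without Hlf (next 8 rows) and Cry2. In crypts the 8 genes of the Dbp side lie between 0.10 and 1.51, and in sorted cells Nr1d1 and Nr1d2 lie at −0.96 and −0.85.

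Among 24 other clock genes tested 6 were called higher and 2 lower in colon GFP than in ileum GFP. Of all genes, 12.6% were called higher and 10.2% lower (22.7% in either direction). Usp2 was among those higher (log2 fold change 1.36, SE 0.22, edgeR adjusted p = 0.00054). Cipc was 0.78 (edgeR adjusted p = 0.00096) and Csnk1e −0.80 (edgeR adjusted p = 0.0052). Rorb, without a count in ileum, was called (edgeR adjusted p = 0.0036). Tef (0.93, edgeR adjusted p = 0.044), Btrc (0.65, 0.012) and Noct (−0.83, 0.027) lost their calls when single GFP libraries were left out. These were any but colon replicate 1 for Tef (adjusted p of up to 0.24 in edgeR), colon replicate 2 for Btrc (0.053) and any but ileum replicate 3 for Noct (up to 0.089). With the shared file numbers as a block the call of Tef was lost (edgeR adjusted p = 0.28), and Bhlhe40 (−0.76, edgeR adjusted p = 0.0041) and Wee1 (0.54, edgeR adjusted p = 0.017) were called.

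Between Atoh1 KO and WT crypts the 10 clock genes differed by 0.52 or less on the log2 scale. In colon KO against WT crypts the 10 genes lay between −0.17 (Dbp) and 0.21 (Cry2) on the log2 scale with SEs of 0.09 to 0.24, and in ileum between −0.37 (Dbp) and 0.52 (Arntl) with SEs of 0.09 to 0.25. In colon 10 of 10 and in ileum 7 of 10 were within 0.25 of 0. No gene of the 10 was called in either tissue, beside 0.153% of all genes in colon (0.00694% higher, 0.146% lower) and 1.22% in ileum (0.132% higher, 1.09% lower). At an unadjusted p under 0.05 edgeR gave 0 in both, beside 1108 of all 14415 genes in colon and 1929 in ileum. DESeq2 called 0 of the 10. Medians were 0.03 and 0.12, against 0.01 over all genes in each tissue. KO and WT libraries were apart for 30% of the 10 genes in each tissue, against 42.6 and 39.9% of all genes.

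The ileum Arntl values were 14.2 and 13.5 CPM in KO against 10.7 and 9.14 CPM in WT, which did not overlap (log2 fold change 0.52, SE 0.23). In colon the Arntl KO libraries, at 10.8 and 6.67 CPM, lay on both sides of the WT values of 8.05 and 7.72 CPM. Dbp was lower in KO libraries of both tissues than in either WT library, at 35.2 and 38.6 against 42.2 and 40.0 CPM in colon and 14.8 and 10.5 against 17.1 and 16.3 CPM in ileum. Its log2 fold changes were −0.17 (SE 0.15) and −0.37 (SE 0.16). Per1 was higher in both colon KO libraries (71.4 and 75.9 CPM) than in colon WT (64.8 and 66.6 CPM), at 0.15 (SE 0.11). The difference of the KO effect between tissues was called for 0 of the 10 genes, beside 0.00694% of all genes. At an unadjusted p under 0.05 edgeR gave 0 of the 10, beside 563 of all 14415 genes, and DESeq2 called 0. This difference reached −0.38 for Arntl (SE 0.33).

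**Figure D5:**
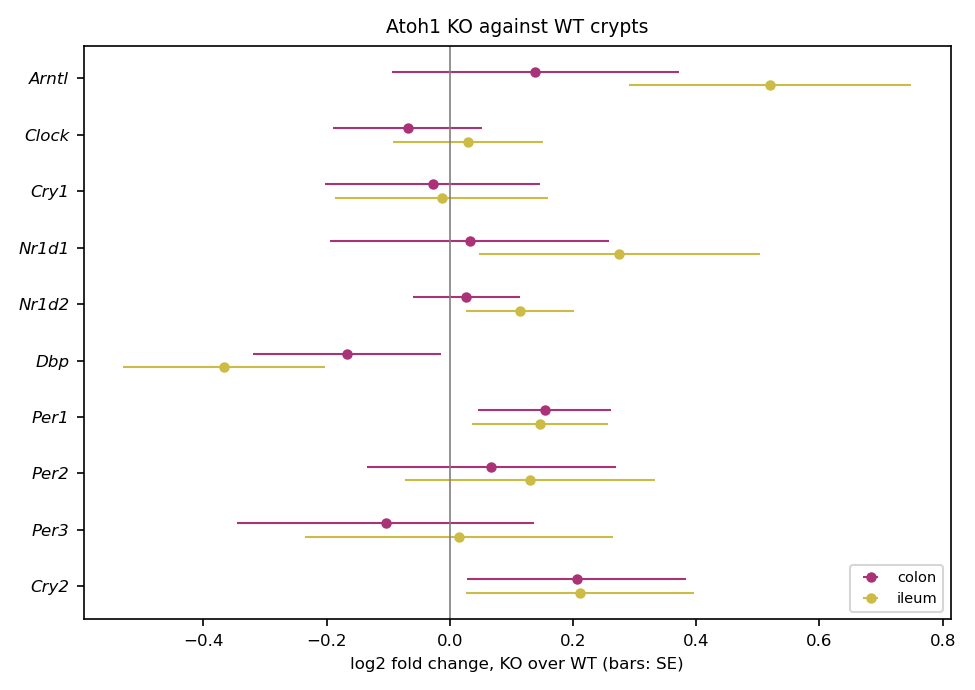
Log2 fold change of Atoh1 KO over WT crypts (horizontal axis; bars are standard errors from edgeR) for the 10 clock genes in colon (purple) and ileum (yellow). All 10 colon points lie within 0.25 of 0, and in ileum Arntl lies at 0.52, Dbp at −0.37 and Nr1d1 at 0.28.

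None of the 23 other clock genes tested was called between KO and WT in either tissue. At an unadjusted p under 0.05 edgeR gave 1 in colon and 4 in ileum, beside 1108 and 1929 of all 14415 genes. DESeq2 called 0 of the 23. Without ileum WT replicate 1 Noct was called higher (log2 fold change 1.63, edgeR adjusted p = 0.0015) and Bhlhe40 lower (−0.69, edgeR adjusted p = 0.015) in ileum KO. Noct had 132 and 124 CPM in ileum KO against 96.0 and 42.0 CPM in WT, so that the WT libraries differed from each other by more than the nearer one did from KO. In the same crypts all 7 goblet markers were lower in KO in each tissue, with sums of 1723 to 1781 against 9603 to 21224 CPM in colon and 208 to 546 against 10813 to 12887 CPM in ileum.

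By group mean, Dbp ran from colon WT through colon KO, ileum WT, ileum KO and colon GFP to ileum GFP, a span of 171-fold, and of neighbours in that order just the 2 sorted groups overlapped. Nr1d2 spanned 9.3-fold, Nr1d1 5.66-fold, Per1 5.48-fold, Per3 4.54-fold and Per2 4.12-fold. For Nr1d2, Nr1d1 and Per1 the order was colon KO, colon WT, ileum KO, ileum WT, ileum GFP and colon GFP. Nr1d1 had overlapping neighbours throughout except between ileum WT and ileum GFP. Arntl spanned 3.46-fold in nearly the reverse order, from colon GFP and ileum GFP, which overlapped, through ileum KO and ileum WT to colon KO and colon WT, where neighbours from ileum WT on overlapped. Cry2 spanned 2.68-fold, Cry1 2.43-fold and Clock 1.37-fold.

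Levels per kb of exon changed rank between crypts and sorted cells. In colon WT the highest mean level was that of Nr1d1 at 17.6 CPM per kb, followed by Nr1d2 at 15.9, Per2 at 13.8 and Dbp at 13.7 CPM per kb, and Arntl was the lowest at 1.05 CPM per kb. In colon GFP Clock led at 8.23 CPM per kb, followed by Cry1 at 5.22, Per2 at 4.04 and Arntl at 3.63 CPM per kb, and Dbp was the lowest at 0.154 CPM per kb. In ileum Nr1d1 led in WT at 13.99 and Clock in GFP at 9.25 CPM per kb, and Dbp was last in GFP at 0.0803 CPM per kb. Exon lengths were taken from a later annotation than the counting used.

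Over the 14 libraries the genes most like Dbp in log2 CPM were Cenpb, Kdm4a, Zc3h7b, Tbc1d13 and Ciart, with Pearson r of 0.99 down to 0.98, and Tef ranked 12th among 15274 genes. Those most like Arntl were Pigu, Prpf8, Serinc3, Parp2 and Gm12420, with Pearson r of 0.97 down to 0.95, and Dbp itself had −0.94 to Arntl. These points fall into crypts and sorted cells, and the likeness describes that split. After group means were subtracted, Arntl was most like Canx, Prkar2b, Trib1, Ebna1bp2 and Mettl1 (0.91 down to 0.87), and its r to Dbp was 0.16. For Dbp the leading genes were then Gnat1, Mras, Fn3krp, Msl3l2 and Ltbp3 (0.95 down to 0.91), on 1 to 7 counts of Dbp in each sorted library.

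Colon and ileum files carry numbers that pair some libraries across the tissues, with no word in the labels on whether such a pair came from 1 mouse. For the numbered pairs, the log2 ratio of one library to the other of its group had the same sign in colon and ileum for 4 of the 10 genes in WT, 9 in KO and 7 in GFP. Over all 15274 genes the share was 55.5, 53.9 and 54.1%, and the ratios correlated at 0.256, 0.292 and 0.126, a description across genes of 3 pairs of libraries. In the KO pair Per3 had ratios of −0.32 in colon and −0.71 in ileum, Cry2 −0.39 and −0.40, and Arntl 0.68 and 0.07, while Dbp had −0.13 and 0.48. Genes of 1 library share its depth and makeup.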

How the data were processed

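RNA was measured in 14 libraries, from Trizol and RNeasy extracts per the labels' protocols. The deposited files hold whole-number read counts per Ensembl gene, 36536 genes each, which the authors made with TopHat 1.4.1, HTSeq and mm9, per the submitters' processing notes. No source used here names the annotation, the strand setting or which HTSeq release was run. Closing lines that name no gene, 42.36 to 68.55% of all reads in each file, were left out. Symbols and exon lengths came from a GENCODE mouse annotation, and 31004 IDs had a symbol. Promoters came from RefSeq (GRCm38.p6), a later build than that of the counts, and were used by symbol only.

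Counts were tested with edgeR 4.0.16 in R 4.3.3 (TMM, filterByExpr by group, quasi-likelihood F test, Benjamini-Hochberg adjustment over all genes tested, threshold 0.05). Comparisons among crypts used the 8 crypt libraries and those with sorted cells all 14. The script was tested on simulated data. Alternatives were DESeq2 1.42.0 and its size factors, other library sizes, no filter, blocks by number, other sets of libraries, and each library left out. The comparison of sorted-to-WT changes between tissues was added after the data were seen. No replicate pair was identical. The 10 genes, the other lists and the rule for naming genes (all 10, other listed clock genes, and the 5 most alike to Arntl and to Dbp) were chosen with earlier results of these data known. Counting depth limits Dbp and Rorb most, and intervals cover counting error only. Results for some listed clock genes are not reported here.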

Additional observations from a re-analysis of the deposited data

Results flagged for a closer look

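The difference in the sorted-to-WT change of Usp2 between colon and ileum passed its own test. Usp2 had 21.0, 22.5 and 20.6 CPM in colon GFP against 59.3 and 40.9 CPM in colon WT, and 11.9, 6.86 and 6.57 CPM in ileum GFP against 62.4 and 59.7 CPM in ileum WT. The change was 1.65 higher on the log2 scale in colon (SE 0.32, edgeR adjusted p = 0.016). The call was lost without colon WT replicate 2 (edgeR adjusted p = 0.093) and with the compared groups alone in the fit (edgeR adjusted p = 0.051).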

How the results depend on the processing

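No called log2 value of a clock gene changed sign in the alternatives run. Depth limits Dbp in sorted cells, at 1 to 7 counts a library, and Rorb, without a count in ileum. Of the log2 values of the 10 genes 1054 of 1119 moved by less than their error. Of those of called other clock genes, 521 of 627 stayed past the threshold and 106 did not. The cause was not tested for any count that follows. With no filter on low counts, all genes called were 56 for colon KO against WT, 9 for the difference in KO effect and 1093 for the difference in the sorted-to-WT change, where 3 of the 10 and 3 other clock genes were called. Colon against ileum GFP then had 5 of the 10 called. DESeq2 called 157 genes for colon KO, 496 for ileum KO, 52 for the difference in KO effect and 840 for that in the sorted-to-WT change, and 5 of the 10 for colon against ileum GFP. With all 14 libraries in the fit, colon KO had 73, ileum KO 265, colon against ileum WT 1836 (2 of the 10, 1 other) and KO 2394 (3 of the 10, 3 others). With only the compared groups, colon KO had 102, ileum KO 4, colon against ileum WT 1213 (1 other) and GFP 2147 (0 of the 10), and the difference in the sorted-to-WT change 155 (0 others).

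Leaving out 1 library gave these ranges. Colon KO had 0 to 14 genes called, fewer without any of its 4 libraries than with all. Ileum KO had 11 (without KO replicate 2) to 1403 (without WT replicate 1), with 0 to 2 other clock genes. The difference in KO effect had 0 to 335 (without ileum WT replicate 1), with 0 to 1 other. Colon against ileum WT had 1289 to 3544, with 2 to 5 of the 10 and 2 to 5 others, lowest without colon WT replicate 2. Colon against ileum KO had 1603 to 2044, with 2 to 4 of the 10 and 2 to 4 others. Colon GFP against WT had 4184 to 6995, with 7 to 8 of the 10 and 12 to 16 others. Ileum GFP against WT had 5981 to 7953, with 7 to 10 and 12 to 15. Colon against ileum GFP had 2416 to 3961, with 0 to 3 and 5 to 9. The difference in the sorted-to-WT change had 137 (without colon WT replicate 2) to 672 (without ileum GFP replicate 1), with 0 to 2 others. Where a group was left with 1 library, that library was assumed to vary like the other groups.

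Deviations of libraries with the same replicate number correlated at −0.011 and 0.0751 for KO and WT within a tissue, from −0.0381 to 0.0475 for GFP and WT, and from −0.0935 to 0.0743 for colon and ileum GFP. They correlated at 0.256 for colon and ileum WT and 0.292 for KO, where the file numbers are shared too. For GFP libraries with shared file numbers the value of 0.126 is of another measure, the log2 ratio of one library to the other. By that ratio WT and KO also stood at 0.256 and 0.292. All 3 values for shared file numbers are thus above 0.1, but each group has 2 such pairs and the labels do not say what the numbers mark. With the replicate block, colon against ileum GFP had 4 of the 10 called, the other clock genes called were 15 for colon GFP against WT and 13 for ileum GFP against WT, and no other count of called genes moved by over 1.5 times. A block by the file numbers shared across tissues gave 2 genes for the difference in KO effect. Between colon and ileum it called 6 of the 10 in WT, 6 in KO and 2 in GFP, and 7, 10 and 9 other clock genes. The counts over all genes under that block are not given here, so these are not read as a gain. The same holds for any alternative above whose count over all genes is not given.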
